A study of Mus musculus with 20 samples.

Results

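The receptors described here are those through which growth factors keep haematopoietic progenitors alive and steer them toward dendritic cells: Flt3, Kit, Csf1r, Csf2ra, Csf2rb, Csf2rb2 and Csf3r. They are 7 of the 18193 genes measured. Every probe set annotated to one of these symbols was taken, which gave 12 of 45037 probe sets, and 1 further probe set annotated to both Csf2rb and Csf2rb2 was kept apart. RNA came from 20 samples of C57BL/6 mouse bone marrow cells, in 10 groups of 2 Affymetrix mouse expression arrays. Multipotent progenitors (MPP) and common dendritic cell progenitors (CDP) had been amplified in culture, and conventional (cDC) and plasmacytoid dendritic cells (pDC) had been grown from amplified progenitors. CDP taken straight from marrow (in vivo CDP) formed a further group. Cultured CDP exposed to TGF-β1, a cytokine that restrains growth and directs differentiation of many cell types, were sampled at 4, 8, 12 and 24 h beside untreated CDP (0 h). The labels state 1 µg of RNA and a one-cycle labelling kit for MPP, CDP, cDC and pDC. They state 250 ng and a 3′ IVT kit for the TGF-β1 series, and 50 ng with the 3′ IVT kit and another extraction kit for in vivo CDP. CDP cultured for 4 to 24 h without TGF-β1 were not among the samples, so the effects of time and of TGF-β1 cannot be told apart. For in vivo CDP, the origin of the cells, the amount of RNA and the kits cannot be told apart. The sources used here give neither the TGF-β1 dose, nor the growth factors in the cultures, nor the sorting gates. They also leave out whether the replicates were separate cultures or animals, and the p-values reflect only how far these arrays spread.

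Flt3, Kit and Csf1r encode related receptor tyrosine kinases for Flt3 ligand, stem cell factor, and the cytokines CSF-1 and IL-34. Kit marks early progenitors and mast cells, Flt3 signalling drives dendritic cell development, and Csf1r marks monocytes, macrophages and many dendritic cell progenitors, so that surface Flt3 and Csf1r are commonly used to sort CDP. Csf2ra encodes the α chain that binds GM-CSF, and Csf2rb the common β chain that signals for GM-CSF, IL-3 and IL-5. The mouse has a second β chain gene, Csf2rb2, whose product serves IL-3 only, and Csf3r encodes the G-CSF receptor of the granulocyte lineage. In the mouse annotation Csf2rb2 and Csf2rb lie on one chromosome with 0 protein-coding genes between them.

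The values are log2 probe set intensities made by the authors with GCRMA, and levels are read here only within a probe set and within one of 2 sets of arrays. The 8 one-cycle arrays, together with both in vivo arrays, share a lowest value of 2.25 and have medians of 2.46 to 2.52, against medians of 5.29 to 5.36 on the 10 arrays of the TGF-β1 series. A probe set was tested with limma where it exceeded 5 on at least 2 arrays of a fit, and was called at a Benjamini-Hochberg adjusted p under 0.05 over all probe sets tested. In each fit 11 of the 12 receptor probe sets were tested. Marker genes mostly followed the labels on the 10 arrays outside the TGF-β1 series. The mean over 11 cDC markers was 10.50 and 10.26 on the cDC arrays and at most 6.11 on the others. That over 9 pDC markers was 12.96 and 12.66 on the pDC arrays and at most 8.02 on the others. That over 10 stem and progenitor markers was 9.07 and 8.75 on the MPP arrays and at most 8.00 on the others. Granulocyte markers averaged 11.19 and 10.60 on the MPP arrays and 10.47 and 9.03 on the in vivo CDP arrays. The pDC marker Cox6a2 read 12.24 and 10.95 in CDP, against 12.21 and 11.98 in pDC. Replicate 1 at 4, 12 and 24 h had low signal from 5′ control probe sets, with 3′ minus 5′ differences for Gapdh of 2.09 to 2.78 on the log2 scale against 0.01 to 0.10 on the other 7 arrays of the series. Outside the series, the Gapdh differences were 0.98 and 0.48 in in vivo CDP and at most 0.30 in the other groups. Those for β-actin were 1.91 and 2.04 in MPP, 1.39 and 1.09 in in vivo CDP, and 1.23 and 2.11 in CDP. They were 0.69 and 0.84 in cDC and 0.84 and 0.94 in pDC. The part of 5′ signal in the differences between these groups was not tested.

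Flt3 was lowest in MPP. The log2 levels were 6.59 and 6.79 in MPP, 11.63 and 11.23 in in vivo CDP, 9.59 and 9.60 in CDP, 10.76 and 11.10 in cDC, and 10.03 and 10.74 in pDC. No array of another group reached down to the MPP arrays, and the in vivo arrays were the highest of all 10. CDP exceeded MPP by 2.90 (SE 0.27, 7.49-fold, adjusted p = 0.00228), and cDC exceeded CDP by 1.33 (SE 0.27, 2.52-fold, adjusted p = 0.00969), a call that ended without replicate 2 of cDC (adjusted p = 0.0574) and with no filter on low values (0.0634). The excess of pDC over CDP, 0.79 (SE 0.27), had an adjusted p of 0.0504, which lay close to the threshold under the alternatives (0.0209 without replicate 1 of pDC, 0.0465 with a filter at 6). In the order MPP, CDP, pDC, cDC and in vivo CDP, only the step between MPP and CDP was called between neighbours; cDC against pDC gave adjusted p = 0.224 and in vivo CDP against cDC 0.16. In vivo CDP exceeded cultured CDP by 1.83 (SE 0.27, 3.57-fold, adjusted p = 0.00157).

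Kit had its highest levels in cDC and its lowest in cultured CDP. Probe set 1452514_a_at read 9.73 and 9.68 in MPP, 7.58 and 7.84 in in vivo CDP, 4.75 and 5.32 in CDP, 11.31 and 10.89 in cDC, and 5.75 and 6.17 in pDC. None of these 5 pairs of arrays overlapped with another. CDP differed from MPP by -4.67 (SE 0.27, 25.5-fold lower, adjusted p = 0.000387), and cDC lay 6.06 above CDP (SE 0.27, 66.9-fold, adjusted p = 7.12e-05), 1.39 above MPP (SE 0.27, adjusted p = 0.00692) and 5.14 above pDC (SE 0.27, 35.3-fold, adjusted p = 7.64e-05). The excess of pDC over CDP, 0.92 (SE 0.27, adjusted p = 0.0302), was no longer called without replicate 1 of CDP (0.134), replicate 2 of pDC (0.153), replicate 1 of MPP (0.0502) or replicate 2 of MPP (0.0501), or with no filter on low values (0.128).

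The second Kit probe set, 1415900_a_at, gave the same order for MPP, CDP and cDC but not for in vivo CDP. Its levels were 6.72 and 6.11 in MPP, 2.68 and 2.84 in in vivo CDP, 2.60 and 2.56 in CDP, 8.46 and 7.42 in cDC, and 2.84 and 2.89 in pDC. In vivo CDP therefore read like cultured CDP here (difference 0.18, SE 0.34, adjusted p = 0.706, all 4 values under 5), while by 1452514_a_at in vivo CDP exceeded cultured CDP by 2.67 (SE 0.26, 6.38-fold, adjusted p = 0.000282). Against MPP, CDP were at least 2.67-fold lower by this probe set (adjusted p = 0.00241), a call that ended when values under 5 were raised to 5 (adjusted p = 0.0946). Over the 10 arrays that share the floor, the probe sets had a Pearson r of 0.93.

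Because Kit is also abundant in mast cells, the 9 mast cell and basophil markers were read beside it. Their mean was 2.91 and 3.96 on replicates 1 and 2 of cDC, against 3.58 and 3.49 in CDP and 6.65 and 6.32 in MPP. In cDC, 1 of the 9 was above 5 on both arrays, the histidine decarboxylase gene Hdc, at 6.29 on replicate 1 and 5.02 on replicate 2, and Tpsb2, Mcpt4 and Cma1 were at the floor. The carboxypeptidase Cpa3 ran the other way, with 2.25 on replicate 1 and 5.23 on replicate 2. So did Mcpt8 (2.32 and 6.38), Mitf (4.05 and 5.74), Ms4a2 (2.25 and 3.66) and Fcer1a (2.30 and 2.90). The part of mast cells or basophils in the Kit values was not tested.

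Csf1r was high in both kinds of CDP and differed most between the replicate arrays of pDC. Probe set 1419872_at read 11.25 and 10.78 in MPP, 12.43 and 12.90 in in vivo CDP, 12.70 and 12.41 in CDP, 10.64 and 11.59 in cDC, and 7.63 and 10.48 in pDC. The pDC arrays were the lowest of the 10, with replicate 1 below replicate 2. The other probe sets gave the same split in pDC, with 4.17 and 7.57 by 1419873_s_at and 4.85 and 6.82 by 1423593_a_at. All 3 were lower in pDC than in CDP, with differences of -3.51 (SE 0.85, adjusted p = 0.0146), -4.29 (SE 0.99, adjusted p = 0.0119) and -2.55 (SE 0.63, adjusted p = 0.0151). None of these calls held without replicate 1 of CDP (adjusted p = 0.0653, 0.0561 and 0.0802), and that of 1419872_at was also lost without replicate 2 of CDP (0.0559). With no filter on low values none was made (0.122, 0.109 and 0.12).

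The spread of Csf1r between the pDC arrays entered the SE of every comparison in the same fit. The excess of CDP over MPP, 1.55, 1.79 and 1.79 by the 3 probe sets, was not called (SE 0.85, 0.99 and 0.63, adjusted p = 0.439, 0.441 and 0.206), although all arrays of CDP lay above those of MPP. For cDC against CDP the differences were -1.44, -1.68 and -1.06 (adjusted p = 0.219 each), and the first and second of them were called without replicate 1 of pDC (adjusted p = 0.0299 and 0.0178) and without replicate 2 of pDC (0.03 and 0.0178). Some macrophage markers differed between the same pDC arrays. The mean over 7 monocyte and macrophage markers was 6.90 on replicate 1 and 8.46 on replicate 2, with 4 of the 7 above 5 on both. Adgre1 read 4.32 and 8.86 and the mannose receptor Mrc1 2.78 and 7.08. Cd14 (6.94 and 7.91) and Cx3cr1 (5.93 and 6.73) differed less. Fcgr1 (3.77 and 3.91), Cd68 (10.96 and 10.93) and Ccr2 (13.57 and 13.81) differed little. The same mean was 9.52 and 9.35 in cDC, against 9.09 and 8.15 in CDP. The part of monocytes or macrophages in the Csf1r values was not tested. In these bulk samples, fewer cells of a type and less RNA per cell cannot be told apart.

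Of the GM-CSF receptor chains, Csf2ra was higher in cDC than in CDP. Probe set 1420703_at read 6.98 and 6.80 in MPP, 8.40 and 7.84 in in vivo CDP, 6.87 and 5.65 in CDP, 8.72 and 8.37 in cDC, and 6.08 and 6.21 in pDC. The cDC and in vivo arrays overlapped each other and lay above all other arrays. Compared with CDP, cDC were higher by 2.29 (SE 0.39, 4.88-fold, adjusted p = 0.00494) and in vivo CDP by 1.86 (SE 0.38, 3.63-fold, adjusted p = 0.00636), and compared with pDC, cDC were higher by 2.40 (SE 0.39, adjusted p = 0.00606). With no filter on low values the calls of cDC against CDP and against pDC ended (adjusted p = 0.0524 and 0.0672). Csf2ra probe set 1420704_at stayed under 5 on all 10 arrays and was not tested there; its values repeated exactly, at 3.51, on 4 arrays.

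The common β chain varied little across the groups. Csf2rb probe set 1455660_at read 10.86 and 11.07 in MPP, 10.60 and 10.82 in in vivo CDP, 11.09 and 11.64 in CDP, 11.40 and 11.44 in cDC, and 11.99 and 11.80 in pDC. Its group means spanned 1.18 and those of the other Csf2rb probe set 1.54, against 4.74 for the Flt3 probe set and 6.06 for 1452514_a_at of Kit. Differences of pDC from MPP were called for both Csf2rb probe sets, at 0.93 (SE 0.23, adjusted p = 0.0149) and 1.36 (SE 0.24, adjusted p = 0.00371), and the first was lost without replicate 1 of MPP (0.0793), without replicate 1 of pDC (0.0778) and with no filter on low values (0.0587). In vivo CDP were lower than cultured CDP, with a difference of -0.66 (SE 0.22, adjusted p = 0.0467) and, by probe set 1421326_at, of -0.998 (SE 0.235, adjusted p = 0.0111); neither call held without replicate 2 of CDP (adjusted p = 0.232 and 0.062) or replicate 2 of in vivo CDP (0.0921 and 0.074). The first was also lost when any other single array of the 10 but replicate 1 of CDP was left out, with adjusted p up to 0.197.

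Csf2rb2, the IL-3-specific β chain, separated pDC from every other group. Its levels were 7.001 and 6.24 in MPP, 7.74 and 8.86 in in vivo CDP, 8.86 and 9.35 in CDP, 9.55 and 9.66 in cDC, and 12.16 and 11.79 in pDC. Both pDC arrays lay above all others and both MPP arrays below. The excess was 2.49 for CDP over MPP (SE 0.31, 5.61-fold, adjusted p = 0.00717, or 0.0826 with no filter on low values) and 2.87 for pDC over CDP (SE 0.31, 7.30-fold, adjusted p = 0.000662). cDC differed from pDC by -2.37 (SE 0.31, 5.17-fold lower, adjusted p = 0.00268), and against CDP the difference of cDC was 0.50 (SE 0.31, adjusted p = 0.244). The probe set shared by Csf2rb and Csf2rb2, 1450200_s_at, read 4.97 on both MPP arrays, replicate 1 of CDP and replicate 2 of cDC, and 6.54 and 5.83 in pDC, so most of its values were near or under 5.

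Csf3r was highest in MPP. It read 9.66 and 9.35 in MPP, 7.65 and 8.02 in in vivo CDP, 8.15 and 7.36 in CDP, 6.01 and 6.51 in cDC, and 6.06 on both pDC arrays. Identical pDC values were not particular to this probe set. Of 45037 probe sets, 4029 had the same value above the shared floor on both pDC arrays, and 73 had the same value above 5. Whether 6.06 is a lower limit of this probe set was not tested. CDP differed from MPP by -1.75 (SE 0.31, 3.37-fold lower, adjusted p = 0.0263), which was not called without replicate 2 of CDP (0.0823), replicate 1 of MPP (0.175), replicate 2 of MPP (0.117), or either array of pDC (0.0564), nor with no filter on low values (0.171). cDC differed from CDP by -1.49 (SE 0.31, adjusted p = 0.0103, or 0.0552 without replicate 1 of cDC and 0.0739 with no filter), and pDC by -1.69 (SE 0.31, adjusted p = 0.00491). The mean over 11 granulocyte markers was 7.99 and 6.78 in CDP against 11.19 and 10.60 in MPP, and 3.38 and 3.32 in cDC and 3.08 and 3.06 in pDC. Like Csf3r, this mean was highest in MPP and lower in cDC and pDC than in CDP. Of 10 markers tested, 9 were called lower in CDP than in MPP and 1 higher (4.92% of all probe sets called). The 1 higher was Mmp8, at 8.71 and 7.65 in CDP and 5.42 and 4.35 in MPP. Between cDC and pDC Csf3r differed by 0.19 (adjusted p = 0.726), with no settled direction. The part of granulocyte genes in the Csf3r values was not tested. In in vivo CDP the marker mean was 10.47 and 9.03, against 7.99 and 6.78 in cultured CDP, while Csf3r differed by 0.08 (SE 0.30, adjusted p = 0.851).

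**Figure D1:**
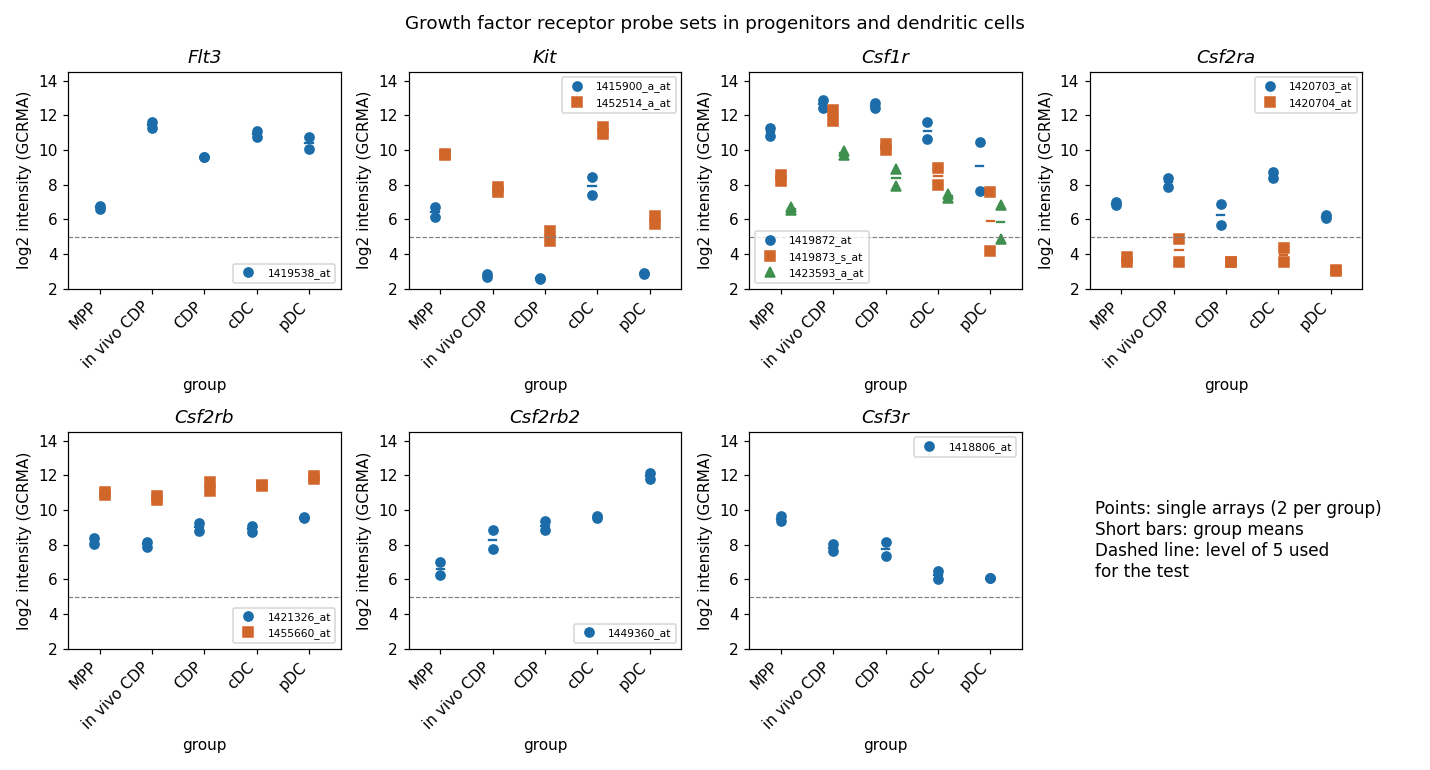
Log2 intensity of each receptor probe set (vertical axis) on the single arrays of MPP, in vivo CDP, CDP, cDC and pDC (horizontal axis, 2 arrays per group); points are arrays, short bars group means, and colours and symbols the probe sets of a gene. Kit 1452514_a_at lies at 11.31 and 10.89 in cDC, Csf2rb2 at 12.16 and 11.79 in pDC, and the pDC arrays of Csf1r 1419872_at at 7.63 and 10.48.

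The counts of called receptor probe sets are given beside the share called over the whole array. The sorting gates are not given, so calls fixed by sorting cells on a receptor cannot be told apart from the others. Between CDP and MPP, 5 of 11 receptor probe sets were called, 2 higher (Flt3, Csf2rb2) and 3 lower (both of Kit, Csf3r), where 4.92% of all probe sets tested were called. The median difference was 0.81 over the 11 and 0.02 over all. For cDC against CDP it was 5 of 11 (4 higher, 1 lower; 40.2% of all probe sets), for pDC against CDP 6 of 11 (2 higher, 4 lower; 48.2%), and for cDC against pDC 4 of 11 (3 higher, 1 lower; 20.8%). Shares near the background, as in the comparisons of cDC and pDC with CDP, are no result about the receptors. Against MPP, 6 of 11 were called in cDC (5 higher, 1 lower; 45.1%) and 7 of 11 in pDC (4 higher, 3 lower; 50.7%).

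In vivo CDP gave 5 of 11 calls against CDP (3 higher, 2 lower; 42.8%) and 8 of 11 against MPP (5 higher, 3 lower; 44.4%). Against cDC 8 of 11 were called (3 higher, 5 lower; 50.9%) and against pDC 10 of 11 (7 higher, 3 lower; 54.7%). The 3 Csf1r probe sets differed by 0.11, 1.83 and 1.42 between in vivo CDP and cultured CDP (SE 0.79, 0.92 and 0.58) and none was called (adjusted p = 0.932, 0.146 and 0.0823). Without replicate 1 of pDC both larger differences were called (adjusted p = 0.00818 and 0.013), and likewise without replicate 2 of pDC (0.00821 and 0.013). Without replicate 2 of in vivo CDP, Csf2rb2 was called lower than in CDP, with a difference of -1.37 (adjusted p = 0.0419), against a difference of -0.81 (SE 0.40, adjusted p = 0.143) with it.

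**Figure D2:**
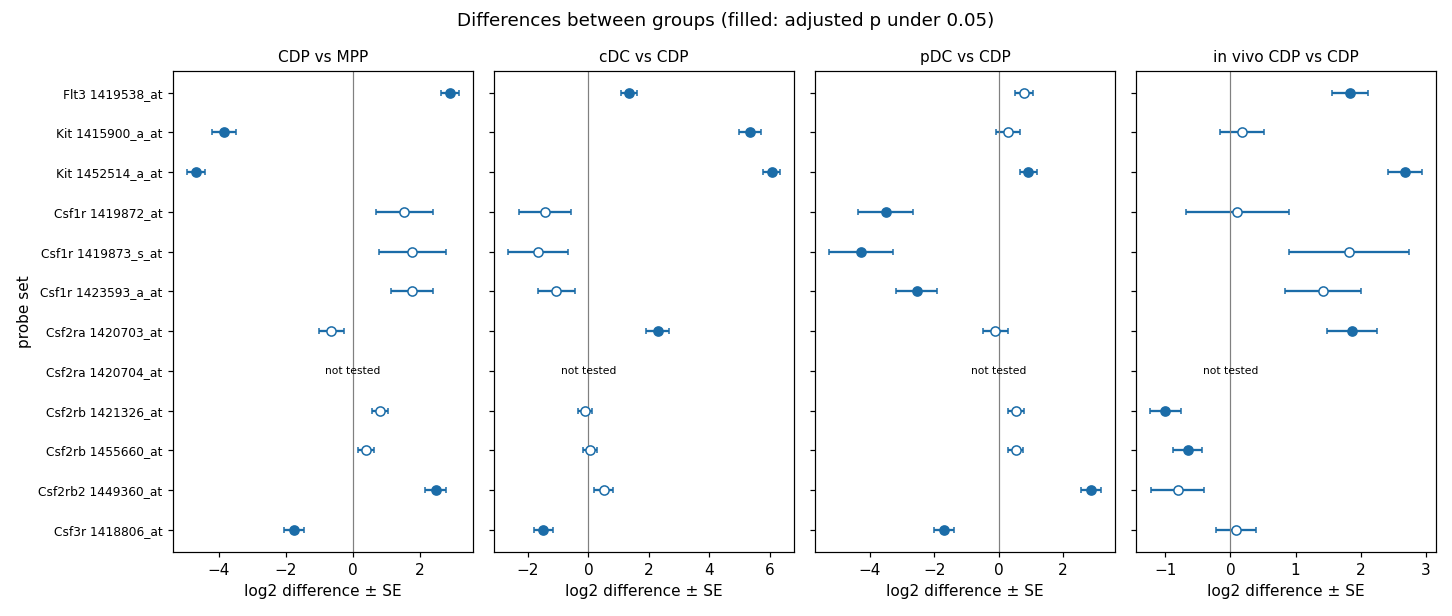
Log2 difference with limma's SE (horizontal axis) of each receptor probe set (vertical axis) for CDP against MPP, cDC against CDP, pDC against CDP and in vivo CDP against CDP, 2 arrays per group; filled points have an adjusted p under 0.05, and the horizontal scales differ between panels. Kit moves by -4.67 in CDP against MPP and by 6.06 in cDC against CDP, and the wide bars are those of Csf1r, with SE up to 0.99.

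In the TGF-β1 series, Kit was higher at 24 h than at 0 h and 4 h, and its lowest readings came at 4 to 12 h. Probe set 1452514_a_at read 7.43 and 7.08 at 0 h, 5.98 and 6.12 at 4 h, 6.07 and 5.48 at 8 h, 6.58 and 5.78 at 12 h, and 8.97 and 8.72 at 24 h. All 6 arrays of 4, 8 and 12 h lay below both arrays of 0 h, and both arrays of 24 h lay above them. At 24 h Kit exceeded 0 h by 1.59 (SE 0.31, 3.01-fold, adjusted p = 0.0134) and 4 h by 2.80 (SE 0.31, 6.95-fold, adjusted p = 0.00296). The differences at 4, 8 and 12 h were -1.21, -1.48 and -1.07 (SE 0.31 each) and were not called (adjusted p = 0.329, 0.104 and 0.128). With the replicate number as a block they had adjusted p of 0.0883, 0.023 and 0.032, so that those at 8 and 12 h were called. Without the 3 arrays of low 5′ signal the drop at 8 h was called as well (adjusted p = 0.043).

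The late rise of Kit against 0 h rested on few arrays. It was not called without replicate 1 of 0 h (adjusted p = 0.0595), replicate 2 of 0 h (0.11) or replicate 1 of 24 h (0.0798). The rise between 4 and 24 h was called in each of these fits. The F-test over all times called Kit (adjusted p = 0.00573). The other Kit probe set, 1415900_a_at, stayed between 3.91 and 4.65 on all 10 arrays and was not tested. Markers of other cells moved over the same hours. Of the cDC markers, 10 of 10 tested were called higher at 24 h (median 2.22 on the log2 scale), where 14.2% of all probe sets were called. The mean over all 11 was 6.31 and 6.14 at 0 h, 6.58 and 6.45 at 4 h, 7.07 and 7.02 at 8 h, 7.50 and 7.43 at 12 h, and 8.43 and 8.62 at 24 h. The 9 mast cell and basophil markers averaged 4.81 and 4.68 at 24 h, against 4.62 and 4.76 at 0 h. Of 4 tested, 1 was called higher (14.2% of all probe sets called), the transcription factor Mitf (adjusted p = 0.00705). Mitf read 7.38 and 7.10 at 24 h, against 6.12 on both arrays of 0 h. Cpa3 read 5.17 and 5.18 at 24 h, against 4.44 and 4.74 at 0 h. The marker Mcpt8 went the other way, with 5.21 and 5.48 at 24 h, against 6.38 and 7.26 at 0 h. The part of these cells in the Kit values was not tested.

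Flt3 rose over the series. It read 11.18 and 11.10 at 0 h, 11.36 and 11.37 at 4 h, 12.04 and 12.07 at 8 h, 12.02 and 12.26 at 12 h, and 12.11 and 12.29 at 24 h. Arrays of 8, 12 and 24 h lay above all arrays of 0 and 4 h. Those of 12 h overlapped with those of 8 h and of 24 h, while both arrays of 24 h lay above both of 8 h. The difference from 0 h was 0.91 at 8 h (SE 0.16, adjusted p = 0.0572, or 0.0285 with the block), 1.00 at 12 h (SE 0.16, 2.00-fold, adjusted p = 0.0183) and 1.06 at 24 h (SE 0.16, 2.09-fold, adjusted p = 0.00473). The call at 12 h ended without any one of the 4 arrays of 0 and 12 h (adjusted p = 0.0772 to 0.186), and that at 24 h without replicate 2 of 0 h (0.0559). The F-test over all times called Flt3 (adjusted p = 0.0163), but not without replicate 1 of 0 h (0.105), replicate 2 of 0 h (0.121), replicate 1 of 8 h (0.0506) or replicate 2 of 24 h (0.0569). The cDC markers given beside Kit also rose over the same hours. Their mean was 7.50 and 7.43 at 12 h and 8.43 and 8.62 at 24 h, while the Flt3 arrays of these times overlapped. Of 8 pDC markers tested, 3 were called higher at 24 h and 0 lower, where 14.2% of all probe sets were called (median difference 0.06). The mean over the 9 pDC markers was 7.464 and 8.112 at 24 h, against 7.095 and 7.325 at 0 h. The part of cDC or pDC in the Flt3 values was not tested.

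Csf1r rose by 2 of its 3 probe sets. Probe set 1419872_at read 12.55 and 12.34 at 0 h, 13.20 and 12.67 at 4 h, 12.86 and 12.84 at 8 h, 13.28 and 13.09 at 12 h, and 13.54 and 13.17 at 24 h. Every later array lay above both arrays of 0 h. At 24 h the difference from 0 h was 0.91 (SE 0.22, 1.88-fold, adjusted p = 0.0328). By 1419873_s_at it was 0.90 (SE 0.17, 1.87-fold, adjusted p = 0.0118). Without the 3 arrays of low 5′ signal these differences were 0.72 and 0.92. Probe set 1423593_a_at, at 9.62 and 10.59 at 24 h, against 9.81 and 9.68 at 0 h, differed by 0.36 (SE 0.51, adjusted p = 0.718). On the arrays with low 5′ signal it read 8.63, 9.77 and 9.62, against 10.21, 10.36 and 10.59 on the other arrays of the same times, and without the low arrays it differed by 0.85 (adjusted p = 0.019).

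The Csf1r calls at 24 h were lost when either array of 0 h or replicate 1 of 24 h was left out, with adjusted p of 0.121 to 0.201 for 1419872_at and 0.0576 to 0.102 for 1419873_s_at. Without replicate 2 of 24 h 1419873_s_at had an adjusted p of 0.0522. With 1 array of 8 or 12 h left out, that of 1419872_at was 0.0531 to 0.0615. At 12 h the differences of these probe sets were 0.74 and 0.80 (adjusted p = 0.145 and 0.0505), and with the block both were called (0.0384 and 0.026). Beside Csf1r, the mean over the 7 monocyte and macrophage markers was 7.33 and 7.68 at 24 h, against 8.59 and 8.50 at 0 h. Of 6 tested, 1 was called lower, where 14.2% of all probe sets were called. Cx3cr1 of this list went the other way, with 9.37 and 9.55 at 24 h, against 9.27 and 8.89 at 0 h. The cDC markers were higher. The part of either list in the Csf1r values was not tested.

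Csf3r fell. It read 8.26 and 8.22 at 0 h, 7.35 and 8.05 at 4 h, 7.82 and 7.78 at 8 h, 7.27 and 7.02 at 12 h, and 7.11 and 7.01 at 24 h. All 8 later arrays lay below both arrays of 0 h. At 24 h Csf3r fell by 1.18 (SE 0.23, 2.27-fold, adjusted p = 0.0145), and at 12 h it differed by -1.09 (SE 0.23, adjusted p = 0.0527, or 0.0328 with the block). The call at 24 h did not hold without any one of the 4 arrays of 0 and 24 h (adjusted p = 0.062 to 0.0996). Over the same hours the mean of the 11 granulocyte markers was 6.43 and 6.33 at 24 h, against 7.50 and 7.33 at 0 h. Of the 11, 2 were called lower, where 14.2% of all probe sets were called. The part of granulocyte genes in the fall of Csf3r was not tested.

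The chains of the GM-CSF and IL-3 receptors gave no call at 24 h. Csf2ra probe set 1420704_at read 7.09 and 6.65 at 24 h, against 6.08 and 5.98 at 0 h, a difference of 0.84 (SE 0.27, adjusted p = 0.0768, or 0.0237 with the block), while 1420703_at of the same gene differed by -0.14 (SE 0.42, adjusted p = 0.885). For Csf2rb, 1455660_at differed by -0.18 (SE 0.20) and 1421326_at by -1.07 (SE 0.55, adjusted p = 0.263). The low values of the second, 8.54, 8.33 and 8.34, belonged to the 3 arrays with low 5′ signal, against 10.02, 9.30 and 9.45 on the other arrays of the same times. Csf2rb2 stood at 10.84 and 10.92 at 24 h, against 10.60 and 10.66 at 0 h (difference 0.25, SE 0.15, adjusted p = 0.346).

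**Figure D3:**
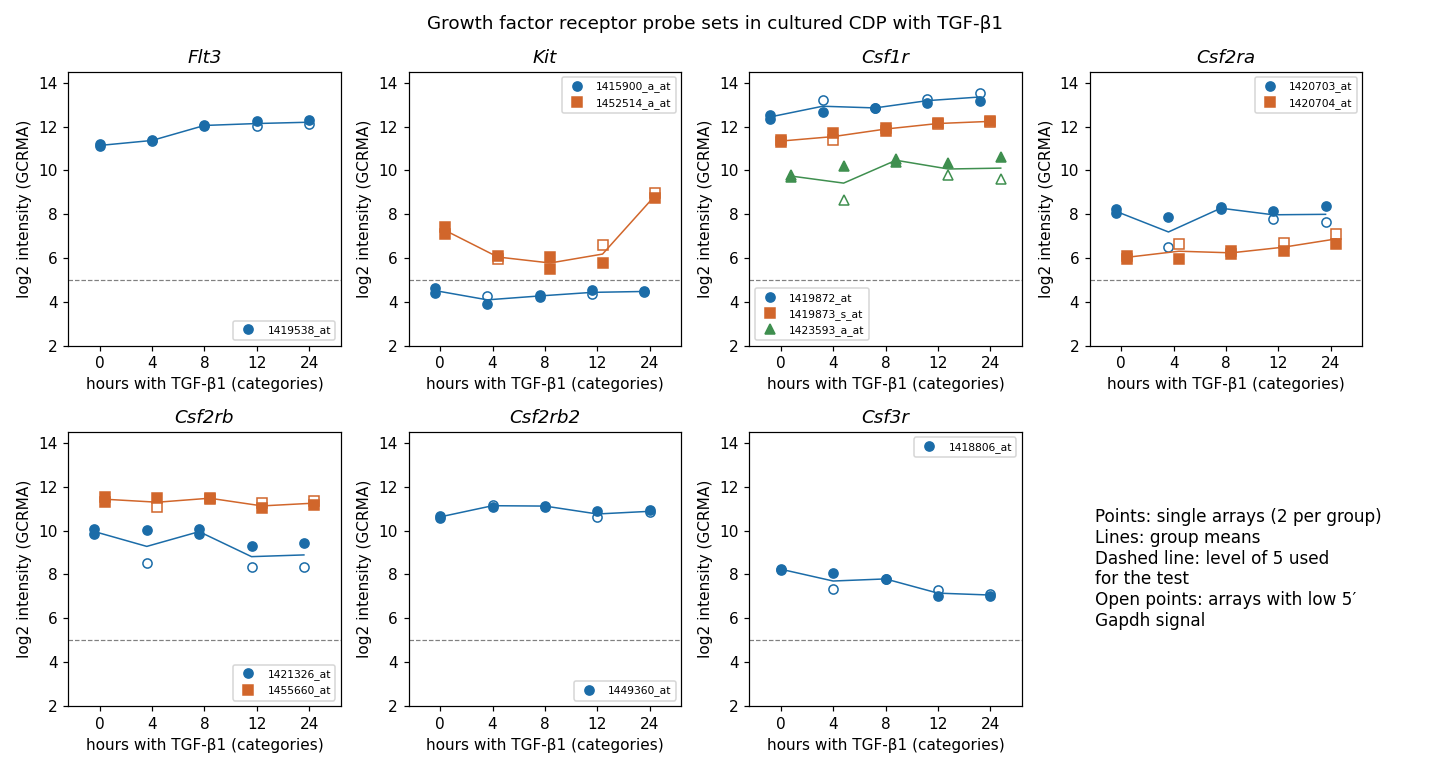
Log2 intensity of each receptor probe set (vertical axis) on the 10 arrays of cultured CDP by hours with TGF-β1 (horizontal axis, drawn as evenly spaced categories); points are arrays, lines join group means, and open points mark the 3 arrays with low 5′ signal. Kit 1452514_a_at reads 7.43 and 7.08 at 0 h and 8.97 and 8.72 at 24 h with lower values between, and the open points of Csf2rb 1421326_at lie at 8.33 to 8.54.

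Calls among the receptors gathered at 24 h. At 4 h and at 8 h limma called 0 of 11 receptor probe sets, where 0.278% and 0.677% of all probe sets tested were called, shares that moved by over 1.5 times when 1 array was left out; 3 and 4 of the 11 had an unadjusted p under 0.05, and 0 and 2 were called with the block. At 12 h 1 of 11 was called (2.94% of all), or 5 with the block. At 24 h 5 of 11 were called, 4 higher (Flt3, Kit and 2 of Csf1r) and 1 lower (Csf3r), where 14.2% of all probe sets were called, and without replicate 2 of 0 h this count was 0. Between 24 h and 4 h 3 of 11 were called, all higher (Flt3, Kit and 1 of Csf1r; 8.35% of all). Kit kept its call in every fit that left out 1 array, while the adjusted p reached 0.0971 for Flt3 and 0.149 for Csf1r 1419873_s_at. The F-test over all times called 2 of 11 (5.74% of all), or 5 with the block. All comparisons with 0 h share its 2 arrays. The shares over all probe sets at 12 h, at 24 h, between 24 h and 4 h and in the F-test also moved by over 1.5 times when 1 array was left out.

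**Figure D4:**
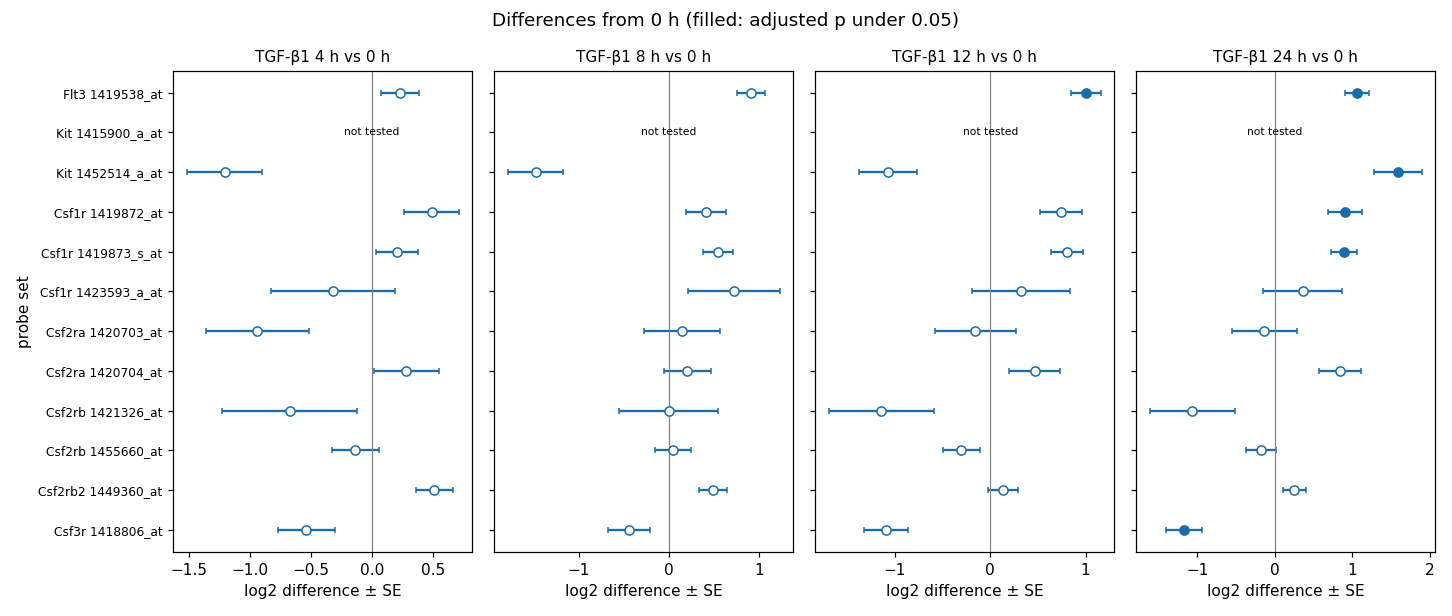
Log2 difference from 0 h with limma's SE (horizontal axis) of each receptor probe set (vertical axis) after 4, 8, 12 and 24 h with TGF-β1, 2 arrays per time; filled points have an adjusted p under 0.05, and the horizontal scales differ between panels. Kit 1452514_a_at lies at -1.21, -1.48 and -1.07 before 1.59 at 24 h, and 5 points are filled at 24 h.

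Promoter sequences are shown for the 3 genes with a call at 24 h whose window is printed here, Kit, Flt3 and Csf3r, so that the letters before their start can be read beside the changes under TGF-β1. They come from RefSeq (GRCm38.p6), 250 bases before to 50 after the start, 5′ to 3′ on the strand of the gene; 5 of the 7 receptor genes had an entry. Capitals mark GTCT on either strand (AGAC on the other), the core letters bound by SMAD proteins, which carry the TGF-β signal to DNA. Kit, chr5:75574737-75575036, + strand, 1 of 2 starts listed, holds 2 matches.
Kit: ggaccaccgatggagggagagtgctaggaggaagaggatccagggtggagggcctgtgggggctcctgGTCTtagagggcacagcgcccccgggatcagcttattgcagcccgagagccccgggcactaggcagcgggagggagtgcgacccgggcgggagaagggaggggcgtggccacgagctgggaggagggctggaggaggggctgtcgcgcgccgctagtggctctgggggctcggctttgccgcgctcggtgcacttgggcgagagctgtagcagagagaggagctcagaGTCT
Flt3, chr5:147400440-147400739, - strand, holds 2 matches.
Flt3: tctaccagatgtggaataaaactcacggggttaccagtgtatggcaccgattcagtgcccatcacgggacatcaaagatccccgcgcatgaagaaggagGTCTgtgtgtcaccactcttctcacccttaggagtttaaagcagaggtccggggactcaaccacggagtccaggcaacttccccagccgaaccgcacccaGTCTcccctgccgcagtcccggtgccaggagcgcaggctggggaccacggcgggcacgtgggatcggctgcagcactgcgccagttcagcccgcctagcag
Csf3r, chr4:126024409-126024708, + strand, holds 4 matches.
Csf3r: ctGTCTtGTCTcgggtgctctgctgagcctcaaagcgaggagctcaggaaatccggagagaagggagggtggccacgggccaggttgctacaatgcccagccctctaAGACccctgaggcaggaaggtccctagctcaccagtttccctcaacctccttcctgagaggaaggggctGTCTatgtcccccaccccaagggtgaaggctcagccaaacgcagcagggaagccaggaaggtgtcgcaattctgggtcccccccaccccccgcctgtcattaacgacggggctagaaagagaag
Of 27025 genes with a promoter, 88.0% hold these letters at least once, so the matches do not set the 3 windows apart. The letters GGAA (TTCC), the core bound by ETS factors such as PU.1, occur 1 time in the Kit window, 2 times in that of Flt3 and 7 times in that of Csf3r, and in 95.9% of all promoters. The E-box CANNTG, read the same on both strands, occurs 1 time for Kit, 2 times for Flt3 and 0 times for Csf3r, and in 72.1% of all promoters. No window holds GATA or TATC, which 58.3% of all promoters hold.

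Of the genes that supply or relay signals of these receptors, Jak2, the kinase that serves the β chains and many cytokine receptors, was higher after 24 h with TGF-β1 by 1.98 (SE 0.21, 3.95-fold, adjusted p = 0.00107). In the list of 21 tested genes of proximal signalling 4 were called at 24 h, all higher, where 14.2% of all probe sets were called, with a median difference of 0.25 against -0.01 over all probe sets; Plcg2, a phospholipase, was higher by 0.98 and the kinase Map2k1 by 0.86. For cDC against CDP 11 of the 21 were called, all higher, where 40.2% of all probe sets were called, with Jak2 higher by 2.43 (SE 0.18, adjusted p = 0.000332), and for pDC against CDP 12 were higher and 3 lower (48.2% of all), with Jak2 higher by 2.11. No test set these counts apart from the background. For CDP against MPP 1 of the 21 was called (4.92% of all), Pik3r5, a regulatory subunit of PI3 kinase γ, higher by 1.68 (SE 0.33, adjusted p = 0.0398).

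Genes of the feedback on these receptors and of their attenuation, taken as 1 list, moved both ways. Of 21 tested at 24 h with TGF-β1, where 14.2% of all probe sets were called, 1 was called higher, the adaptor Dok3 (1.71), and 3 lower, with Dok2 at -2.35 (SE 0.33, 5.11-fold, adjusted p = 0.00359) and the kinase Pim1, a STAT5 target, at -1.68. For in vivo CDP against CDP 8 of 17 were higher and 5 lower (42.8% of all). Socs3, an inhibitor of cytokine receptor signalling, stood at 5.79 ± 0.21 in in vivo CDP and 10.43 ± 0.42 in CDP (SD, n = 2 arrays each; adjusted p = 5.62e-05). The ERK phosphatase Dusp6 stood at 9.72 ± 0.44 in in vivo CDP and 5.25 ± 2.21 in CDP (adjusted p = 0.00566). For cDC against CDP 8 of 17 were higher and 3 lower (40.2% of all). Socs2, a feedback inhibitor induced through STAT5, stood at 8.61 ± 1.39 in cDC and 5.08 ± 0.68 in CDP (SD, n = 2 arrays each; adjusted p = 0.0079), and 3 of its 5 other probe sets had the same sign.

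Ligands were mostly low. Kitl, Csf1, Il34, Csf2, Csf3, Il3 and Il5 were at the floor in MPP and CDP. Among 4 tested ligands and related receptors, 3 were higher in in vivo CDP than in CDP, where 42.8% of all probe sets were called: Pdgfrb, a receptor tyrosine kinase of the Kit family (12.3-fold, adjusted p = 0.000398), Il6ra, the IL-6 receptor chain (10.2-fold, adjusted p = 6.63e-05), and Il3ra, the IL-3 receptor α chain that pairs with both β chains (at least 5.01-fold, adjusted p = 0.000142). At 24 h with TGF-β1, 8 such genes were tested (14.2% of all probe sets called) and Pdgfrb was higher by 1.42 (adjusted p = 0.0303), while Il6st, the gp130 chain, was lower, at -1.23 (adjusted p = 0.0147).

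Most called transcription factors known to act on receptor genes were lower in CDP than in MPP, and in cDC and pDC than in CDP. For CDP against MPP 0 of 15 were called higher and 5 lower (4.92% of all probe sets; median difference -0.39, against 0.02 over all), with the repressor Gfi1 at -4.26 (SE 0.24, 19.2-fold, adjusted p = 0.000347) and Cebpa, a myeloid factor that acts on Csf3r, at -3.12 (SE 0.48, adjusted p = 0.0164). For cDC against CDP 2 were higher and 7 lower (40.2% of all; median -1.31, against -0.10 over all), with Hoxa9 at -6.36 (SE 0.42, adjusted p = 0.000209), and for pDC against CDP 3 were higher and 7 lower (48.2% of all), with Irf8, needed for dendritic cell development, higher by 3.67 (SE 0.28, adjusted p = 0.000194). In in vivo CDP 9 of 15 were higher than in CDP and 1 lower (42.8% of all), with Cebpa higher by 2.67 (SE 0.45, adjusted p = 0.00258) and Irf8 by 3.18. At 24 h with TGF-β1, 2 of 16 were higher and 4 lower (14.2% of all), led by Cebpb at -3.47 (SE 0.35, 11.1-fold, adjusted p = 0.000905), Lyl1 at -2.29 and Myb at -1.48.

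The genes whose levels ran most like those of a receptor were found by Pearson's r over 10 arrays, as a description of arrays that share cell type and labelling. Over the cell types, Kit ran with Dapk1 (r = 0.95) and Il15 (0.94), Flt3 with Itgb7 (0.97), Ly86 (0.97) and Tesk1 (0.97), Csf2rb2 with Hivep3 (0.97), Tcf4 (0.96) and Card6 (0.95), Csf3r with Chst11 (0.99), and Csf1r with Klf10 (0.96). Over the TGF-β1 series, Kit ran with Tnfsf11, which encodes the cytokine RANKL (r = 0.98), Flt3 with Hacl1 (0.98), Csf1r with Fyco1 (0.99) and Csf3r with Srxn1 (0.96).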

How the data were processed

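The values are log2 probe set intensities that the authors deposited as one table, with GCRMA (background adjustment and normalization) named in the submitters' processing notes; the sources used here give no version or settings. Of 45101 probe sets, 64 array controls were left out. By a 2016 annotation of the platform, 34945 of the rest carried a single gene symbol, 932 carried several and 9160 had no name. The values were used as deposited.

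Differences were tested two-sided with the moderated statistics of limma 3.58.1 (R 4.3.3; eBayes with neither trend nor robust), in separate fits of the 8 one-cycle arrays, these plus the 2 in vivo arrays, and the 10 TGF-β1 arrays. Requiring a value over 5 on 2 or more arrays left 17501, 18027 and 26606 probe sets to test. In the TGF-β1 series 54.4% to 56.0% of probe sets exceeded 5, against 34.0% to 35.2% on the others, and probe sets at the floor on all of the others had a median of 3.74 there, so that the level of 5 screens out less. If the lower group had both arrays under 5, its level was set to 5 for the fold, written "at least"; the adjusted p tests the full difference. The number of arrays limits precision. List genes were read from 1 probe set each, that of the highest mean value, and up to 3 called genes per list with the largest differences could be named. The genes run alike are up to 3 with the highest r among probe sets whose group means spanned at least 2 (cell types) or 0.5 (TGF-β1). The receptors, gene lists and tests were chosen with earlier results of these data known. The fits were tested on simulated data. Figures were drawn with matplotlib.

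Deviations from group means of arrays with the same replicate number had correlations of 0.15 to 0.83 between the TGF-β1 times, so the numbers were taken as pairs there and results are given with this block too; replicate 1 at 4, 12 and 24 h also carries the low 5′ signal, so the block takes up both. On the other arrays they were -0.02 to 0.58, with every value below 0 in a pair that holds in vivo CDP and 0.02 between CDP and pDC, and the numbers were not taken as pairs. Alternatives were other filters, quantile normalization, a floor of 5, a mean-dependent prior variance, 1 probe set per gene, the replicate block, each array left out, and the 3 arrays with low 5′ signal left out.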

Additional observations from a re-analysis of the deposited data

How the results depend on the processing

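Of 3102 values of single probe sets under the alternatives, 2830 kept their sign and their side of the threshold, 83 passed it and 144 no longer did. The other 45 had the opposite sign, all of differences not called with or without the alternative (adjusted p at least 0.343 as reported, and at least 0.155 under the alternative), so these differences have no settled direction. Values at exactly 0 were not counted as a change of sign. With no filter on low values, which raises the number of probe sets tested, the count of called receptor probe sets was 3 for CDP against MPP, 2 for cDC against CDP, 2 for pDC against CDP, 5 for in vivo CDP against MPP, 3 for in vivo CDP against cDC, 1 at 8 h and 2 at 12 h. With the replicate block it was 2 at 8 h, 5 at 12 h and 5 in the F-test, and the block moved no other receptor count by more than 1.5 times. For pDC against CDP, where the numbers were not taken as pairs, Flt3 had an adjusted p of 0.0255 with the block. Quantile normalization gave 1 at 8 h and 3 at 12 h, raising values to 5 gave 1 and 2, and leaving out the 3 arrays with low 5′ signal gave 2 and 2. Leaving out each array in turn gave 2 to 7 calls for pDC against CDP, 4 to 7 for cDC against pDC, 3 to 6 for in vivo CDP against CDP, 5 to 9 against MPP and 4 to 9 against cDC. In the TGF-β1 series it gave 0 to 2 at 4 h (2 without replicate 2 of 4 h, Csf2ra and Csf3r), 0 to 3 at 12 h, 0 to 6 at 24 h (0 without replicate 2 of 0 h), 1 to 4 for 24 h against 4 h and 1 to 4 in the F-test. An array left alone in its group was taken to vary like the other groups. Over all probe sets, leaving out 1 array gave 205 to 720 calls for CDP against MPP (861 with all arrays), 3 to 1537 at 4 h (74), 20 to 318 at 8 h (180), 121 to 1277 at 12 h (783) and 1063 to 5194 at 24 h (3766), and the block gave 1119 for CDP against MPP and 6164 at 24 h. At 24 h, leaving out the 3 low arrays changed the number of genes called in the ligand list and in the list of feedback and attenuation. These settings were chosen after seeing the data, and the cause was not tested. The number of arrays, 2 per group, limits the precision of every value.

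The log2 differences whose sign turned when 1 array was left out are given with their range over the arrays left out. For cDC against MPP the range was -0.38 to 0.58 for Csf1r 1419872_at and -0.37 to 0.60 for Csf1r 1419873_s_at. For pDC against MPP the range was -1.75 to 0.21 for Csf1r 1423593_a_at. For cDC against CDP the range was -0.34 to 0.11 for Csf2rb 1421326_at, -0.23 to 0.33 for Csf2rb 1455660_at and -0.20 to 0.77 for the shared probe set 1450200_s_at. For pDC against CDP the range was -0.72 to 0.50 for Csf2ra 1420703_at. For cDC against pDC the range was -0.052 to 0.44 for Csf3r 1418806_at. For in vivo CDP against CDP the range was -0.13 to 0.35 for Csf1r 1419872_at and -0.31 to 0.48 for Csf3r 1418806_at. For 4 h against 0 h the range was -1.11 to 0.47 for Csf1r 1423593_a_at, -0.060 to 0.62 for Csf2ra 1420704_at, -1.42 to 0.066 for Csf2rb 1421326_at, -0.35 to 0.072 for Csf2rb 1455660_at and -0.95 to 0.17 for the shared probe set 1450200_s_at. For 8 h against 0 h the range was -0.13 to 0.12 for Csf2rb 1421326_at and -0.066 to 0.16 for Csf2rb 1455660_at. For 12 h against 0 h the range was -0.34 to 0.025 for Csf2ra 1420703_at. For 24 h against 0 h the range was -0.13 to 0.85 for Csf1r 1423593_a_at and -0.50 to 0.23 for Csf2ra 1420703_at. For 24 h against 4 h the range was -0.10 to 1.47 for Csf1r 1423593_a_at, -1.13 to 0.35 for Csf2rb 1421326_at, -0.25 to 0.17 for Csf2rb 1455660_at and -0.52 to 0.60 for the shared probe set 1450200_s_at. Leaving out the 3 arrays with low 5′ signal also turned some of these values. For 4 h against 0 h it gave 0.47 for Csf1r 1423593_a_at, -0.060 for Csf2ra 1420704_at, 0.066 for Csf2rb 1421326_at, 0.072 for Csf2rb 1455660_at and 0.17 for the shared probe set 1450200_s_at. For 12 h against 0 h it gave 0.025 for Csf2ra 1420703_at. For 24 h against 0 h it gave 0.23 for Csf2ra 1420703_at. For 24 h against 4 h it gave -0.38 for the shared probe set 1450200_s_at. Quantile normalization gave -0.042 for Csf3r 1418806_at for in vivo CDP against CDP, 0.015 for Csf2rb 1421326_at for 8 h against 0 h and 0.040 for Csf2rb 1455660_at and -0.042 for the shared probe set 1450200_s_at for 24 h against 4 h. The cause of these turns was not tested.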
